A study of Homo sapiens with 6 samples.

Results

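The 9 genes described here are 6 metallothionein genes (MT1E, MT1F, MT1G, MT1M, MT1X and MT2A), the zinc exporter gene SLC30A1, the zinc importer gene SLC39A10 and MTF1, the gene of the metal-responsive transcription factor. They were taken by gene name from a table of 58051 human genes, and all 9 were found. They were chosen because polyphosphate, a chain of phosphate groups, binds divalent metal ions. The cells were HEK293T, an established line from human embryonic kidney with the SV40 T antigen, and their poly(A) RNA was sequenced. They had been transiently transfected 48 hours earlier with the empty vector pcDNA3.1- or with pcDNA3.1-ppk1, which carries the gene of a bacterial polyphosphate kinase. There were 3 libraries per group, named B, C and D by the labels, and the control and ppk1 libraries with the same letter formed a matched pair. Both groups had gone through transfection and growth in the same medium, and only the insert differed by the labels. Because whole transfected cultures were sequenced, cells that took up the plasmid and cells that did not were measured together, and fewer cells with a transcript cannot be told apart from less transcript per cell. The table lists human genes, so the level of ppk1 itself was not analysed here.

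Metallothioneins are small cysteine-rich proteins that bind zinc, copper and cadmium ions in the cytosol. When free zinc rises, MTF1 binds zinc through its zinc fingers, enters the nucleus and activates transcription from metal response elements in front of the metallothionein genes and SLC30A1. SLC30A1 sits in the plasma membrane and moves zinc out of the cell. SLC39A10 moves zinc in, and its transcript is known to respond to zinc in the opposite direction, through repression by MTF1. Metallothionein transcripts are therefore widely read as a sensor of available zinc, and SLC30A1 and SLC39A10 as the export and import sides of the same control.

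The letters of the metal response element can be searched in the window before a transcription start, while binding by MTF1 was not measured. Promoter windows were taken from RefSeq (build GRCh38.p14), which held 5 of the 9 genes (MT2A, MT1X, SLC30A1, SLC39A10 and MTF1) and 3 other metallothionein genes (MT1B, MT1H and MT4). The 250 bases before the start were searched on both strands for the core of the metal response element, spelled TGCACNC and TGCGCNC. The windows printed here belong to the 2 metallothionein genes with the most counts, to MT1H, which had no count in any library, and to the exporter gene. They are MT2A (chr16:56608334-56608583, plus strand), MT1X (chr16:56682220-56682469, plus strand), MT1H (chr16:56669564-56669813, plus strand) and SLC30A1 (chr1:211579162-211579411, minus strand). Each is written 5′ to 3′ along the gene, and capitals mark matches to the core on either strand.
MT2A: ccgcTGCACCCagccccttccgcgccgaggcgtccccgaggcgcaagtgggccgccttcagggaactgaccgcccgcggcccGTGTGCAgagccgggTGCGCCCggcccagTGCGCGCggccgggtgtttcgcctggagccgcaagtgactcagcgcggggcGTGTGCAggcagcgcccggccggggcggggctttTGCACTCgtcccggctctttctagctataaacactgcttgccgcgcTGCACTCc
MT1X: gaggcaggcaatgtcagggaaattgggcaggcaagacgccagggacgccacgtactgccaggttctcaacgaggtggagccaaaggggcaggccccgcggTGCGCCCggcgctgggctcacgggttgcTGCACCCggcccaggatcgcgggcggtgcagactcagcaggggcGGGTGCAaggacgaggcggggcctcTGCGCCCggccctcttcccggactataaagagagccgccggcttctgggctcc
MT1H: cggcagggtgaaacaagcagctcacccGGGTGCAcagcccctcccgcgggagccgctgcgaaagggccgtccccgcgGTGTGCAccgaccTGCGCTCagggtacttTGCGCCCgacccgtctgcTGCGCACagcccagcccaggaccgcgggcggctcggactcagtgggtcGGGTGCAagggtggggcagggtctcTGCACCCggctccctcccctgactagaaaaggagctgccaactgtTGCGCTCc
SLC30A1: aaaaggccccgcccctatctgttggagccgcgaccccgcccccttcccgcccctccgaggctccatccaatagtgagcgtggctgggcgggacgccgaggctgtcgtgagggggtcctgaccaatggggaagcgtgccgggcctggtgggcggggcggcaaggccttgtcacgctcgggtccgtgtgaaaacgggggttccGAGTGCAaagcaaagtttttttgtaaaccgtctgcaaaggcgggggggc

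MT2A held 7 matches, a number reached by 11 of 35116 promoter windows (0.0313%). MT1X held 4, reached by 0.37% of windows, and MT1H held 8, reached by 6 windows (0.0171%). MT1B and MT4 held 3 each. SLC30A1 held 1, at bases -49 to -43, and 24.8% of all windows held at least 1. No match was found in the windows of MTF1 and SLC39A10, which says only that these letters are not in those 250 bases. MT1X and MT1H shared the positions of 2 matches, at -78 to -72 on the opposite strand and at -53 to -47 on the gene strand. The number of matches did not order the transcript levels given next, since the window with the most matches belongs to a gene with 0 counts.

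**Figure D1:**
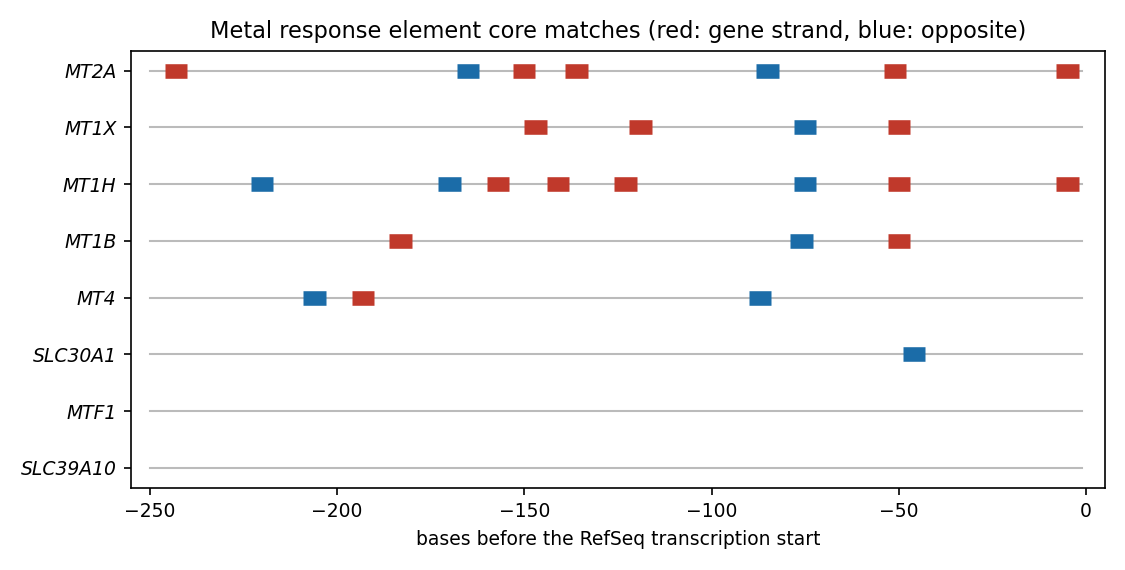
Matches to the metal response element core (TGCACNC or TGCGCNC) in the 250 bases before the RefSeq transcription start, drawn by distance from the start. MT1H (8 matches) and MT2A (7) hold the most, and MTF1 and SLC39A10 hold none.

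Of the 6 metallothionein genes, 3 were transcribed at a level that could be tested. MT2A had 638, 432 and 413 counts in the empty vector libraries B, C and D and 667, 562 and 409 in the ppk1 libraries. MT1X had 499, 282 and 287 counts with the empty vector and 413, 302 and 274 with ppk1. MT1F was far lower, with 36, 34 and 38 counts against 31, 41 and 46. The counts of these genes are small beside the library totals, which ran from 40851783 to 67122986.

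The remaining 3 were at or near 0. MT1E and MT1M had 0 counts in all 6 libraries. A count of 0 allows up to 3 counts, which is between 0.0447 and 0.0734 CPM (counts scaled to a library total of 1e6) depending on the library, for counting error only. MT1G had 1 count in each of 3 libraries (empty vector C, empty vector D and ppk1 B) and 0 in the others. Sequence shared with other genes covered a small part of these transcripts. Of the stretches of 50 bases in their GENCODE release 29 transcripts, 7.1% of those of MT1E, 9.87% of those of MT1M and 16.5% of those of MT1G also occur in another gene.

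The same pattern ran through the rest of the family. Of the 16 metallothionein genes and pseudogenes looked up in the table, 11 had 0 counts in every library. Among them were MT1A, MT1B, MT1H and MT3, the metallothionein best known from brain. MT4, known from stratified epithelium, had at most 1 count per library. MT2A supplied between 54.3% and 62.0% of all metallothionein counts in a library, MT1X between 33.3% and 42.5%, and MT1F between 2.79% and 6.30%. Summed over the family, the level was 22.2, 16.9 and 18.1 CPM in the empty vector libraries B, C and D, and 16.7, 18.9 and 17.5 CPM in the ppk1 libraries. The groups overlapped in this sum, and the single highest library was empty vector B.

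Levels of different genes were compared per kilobase of merged GENCODE exons, because a longer transcript yields more counts. In the empty vector libraries SLC39A10 was the highest of the 9, at 15.6 to 24.6 CPM per kb. SLC30A1 (8.66 to 9.72 CPM per kb) and MT2A (7.51 to 9.30) followed, and these neighbours overlapped. MT1X (3.59 to 5.33) lay above MTF1 (2.70 to 2.87), with no overlap, and MT1F lay at 0.361 to 0.492 CPM per kb. For MT1E and MT1M, 3 counts would correspond to at most 0.0698 and 0.0779 CPM per kb. SLC30A1 ranked 4 of 10 in the SLC30 exporter family by mean level per kb, below SLC30A9, SLC30A5 and SLC30A6. It overlapped with SLC30A6 (8.43, 9.57 and 10.6 CPM per kb in empty vector libraries B, C and D), which was above it in library D only. SLC39A10 ranked 4 of 14 in the SLC39 importer family, below SLC39A7, SLC39A6 and SLC39A1. These ranks depend on the annotated exon lengths.

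**Figure D2:**
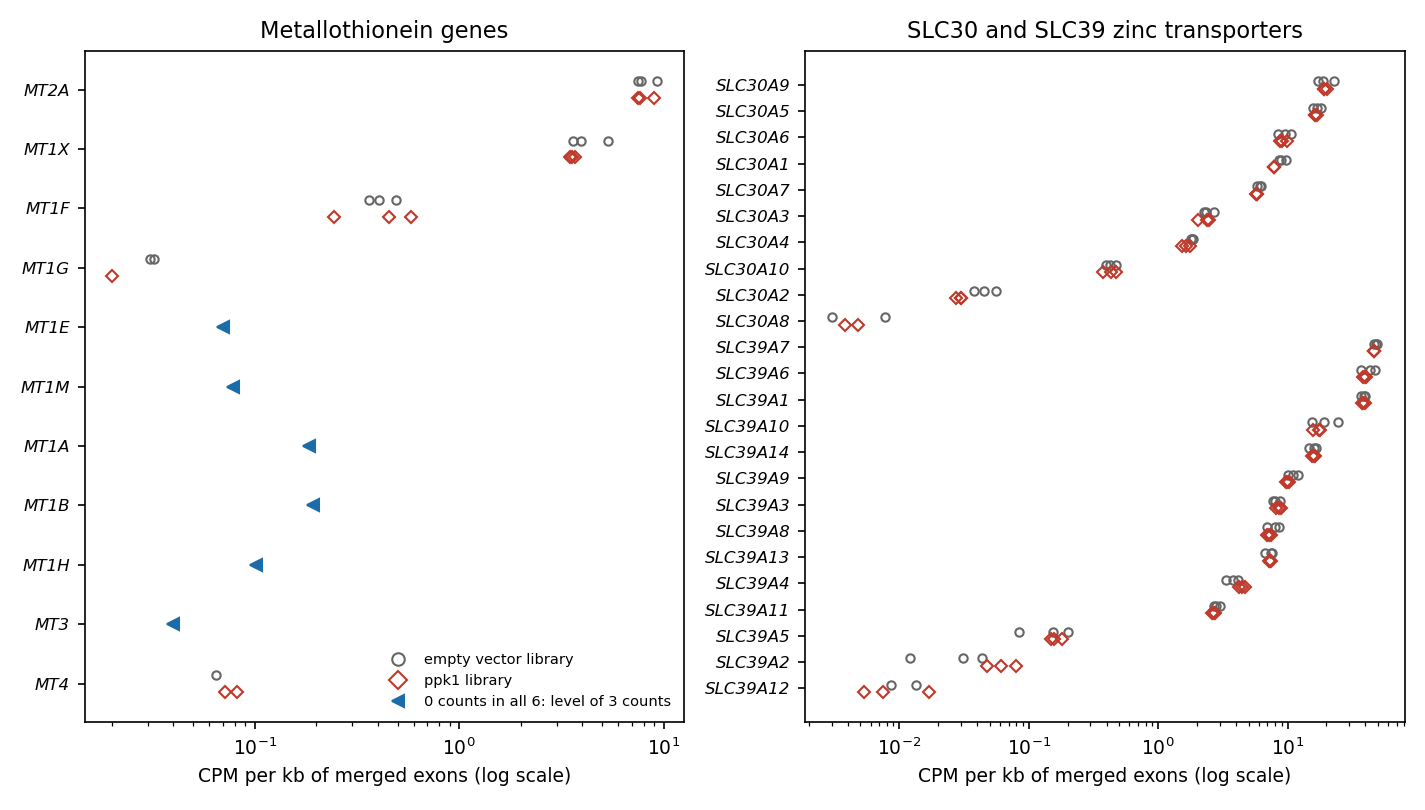
Level per kb of merged exons (CPM per kb, log axis) in each library for the protein-coding metallothionein genes of the chromosome 16 cluster (left) and for the SLC30 and SLC39 zinc transporters (right). Circles are empty vector and diamonds ppk1 libraries, a library with 0 counts has no symbol, and triangles give the highest level that 3 counts would reach for genes with 0 counts in all 6 libraries. MT2A and MT1X stand above MT1F, and MT1G and MT4 rest on single counts.

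The comparison between the groups asks whether expression of the kinase changed these transcripts. It was tested with edgeR's quasi-likelihood test over 19574 genes, with the pair as a block, and p-values were adjusted over all of them by the Benjamini-Hochberg method. None of the 6 members that passed the filter on low counts (MT2A, MT1X, MT1F, SLC30A1, SLC39A10 and MTF1) had an adjusted p below 0.05, so 0 of 6 were called, against 9.08% of all tested genes (4.04% higher and 5.04% lower with ppk1). At an unadjusted p below 0.05, edgeR gave 3 of the 6 (SLC30A1, MT1X and SLC39A10), all lower with ppk1, a threshold that 23.8% of all tested genes passed (11.6% lower). DESeq2 with the same block called 0 and gave 1 at an unadjusted p below 0.05. The fitted log2 fold changes of all 6 were below 0, from -0.26 to -0.02 with a median of -0.13, beside a median of 0.01 over all tested genes. SLC30A1 and MT1X were lower with ppk1 in all 3 pairs, as were 21.1% of all tested genes.

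MT2A is the most abundant metallothionein here and a major one in many human cells. Its level was 12.1, 9.75 and 10.1 CPM in empty vector libraries B, C and D and 9.99, 11.7 and 9.79 CPM in the ppk1 libraries. The groups overlapped, with B lower and C higher with ppk1. The means were 10.7 ± 1.26 and 10.5 ± 1.07 CPM (SD, n = 3 libraries per group). The log2 fold change was -0.02 (SE 0.10), with an edgeR adjusted p of 0.915. Its 95% interval ran from a 0.855-fold to a 1.13-fold level, so a change of MT2A within these bounds was not excluded with 3 pairs.

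MT1X, the second metallothionein by level, was at 9.45, 6.37 and 7.03 CPM with the empty vector and at 6.18, 6.30 and 6.56 CPM with ppk1. The ppk1 libraries lay close together, and the empty vector libraries were set apart by B. In pairs B, C and D the log2 difference was -0.61, -0.01 and -0.10, so the fitted value of -0.26 (SE 0.11) rested mostly on pair B. The edgeR adjusted p was 0.142, and the 95% interval ran from 0.714-fold to 0.977-fold. Without replicate D the adjusted p was 0.033 at a log2 fold change of -0.36, without B it was 0.847 at -0.06 and without C 0.253 at -0.37, and with corrections for length and GC content it was 0.0384 at -0.31. MT1X overlaps a longer noncoding transcript on the same strand, and 18.3% of its 50-base stretches also occur in other genes, chiefly that one, so its counts are uncertain.

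The ratio of MT1X to MT2A counts, looked at after their values were seen, was 0.782, 0.653 and 0.695 in empty vector libraries B, C and D. In the ppk1 libraries it was 0.619, 0.537 and 0.670. It was lower with ppk1 in each pair, while the ranges of the groups overlapped. A ratio within a library shows only unequal change of the pair of genes.

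MT1F had 0.682, 0.767 and 0.930 CPM with the empty vector and 0.464, 0.855 and 1.10 CPM with ppk1. Its values overlapped widely. The log2 fold change was -0.03 (SE 0.24, edgeR adjusted p 0.955), and the 95% interval from 0.705-fold to 1.36-fold was the widest of the 6. Without replicate B the fitted values of MT1F and MT2A turned positive, at 0.20 and 0.11 on the log2 scale, and neither was called.

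SLC30A1 came closest to a call. The exporter transcript was at 47.4, 53.2 and 48.6 CPM with the empty vector and at 42.8, 43.2 and 42.7 CPM with ppk1. Every ppk1 library lay below every empty vector library, which was so for 12.6% of all tested genes. The means were 49.8 ± 3.07 and 42.9 ± 0.225 CPM (SD, n = 3 libraries per group), and the log2 differences were -0.15 (pair B), -0.30 (C) and -0.19 (D). The fitted log2 fold change was -0.21 (SE 0.08), a level of 0.864-fold with a 95% interval of 0.778 to 0.959. Its edgeR adjusted p was 0.0664. It was 0.0505 without replicate B, 0.738 without replicate C and 0.0331 without replicate D, and 0.131 with DESeq2, so the gene was called only without pair D among these fits.

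SLC39A10 varied more between the empty vector libraries than between the groups. It was at 107.6, 132.5 and 170.3 CPM in empty vector libraries B, C and D and at 123.8, 109.6 and 121.5 CPM with ppk1. Pair B was higher with ppk1 by 0.20 on the log2 scale, and pairs C and D were lower, with differences of -0.27 and -0.49. The fitted log2 fold change was -0.19 (SE 0.08, edgeR adjusted p 0.163). Without replicate B it was -0.38 with an adjusted p of 0.000803, against 0.796 without C and 0.727 without D, so the call depended on pair B. MTF1 was at 22.7, 23.0 and 21.7 CPM with the empty vector and at 21.6, 23.6 and 19.4 CPM with ppk1. These values overlapped, and its log2 fold change was -0.07 (SE 0.08, edgeR adjusted p 0.671, 95% interval 0.853-fold to 1.07-fold).

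**Figure D3:**
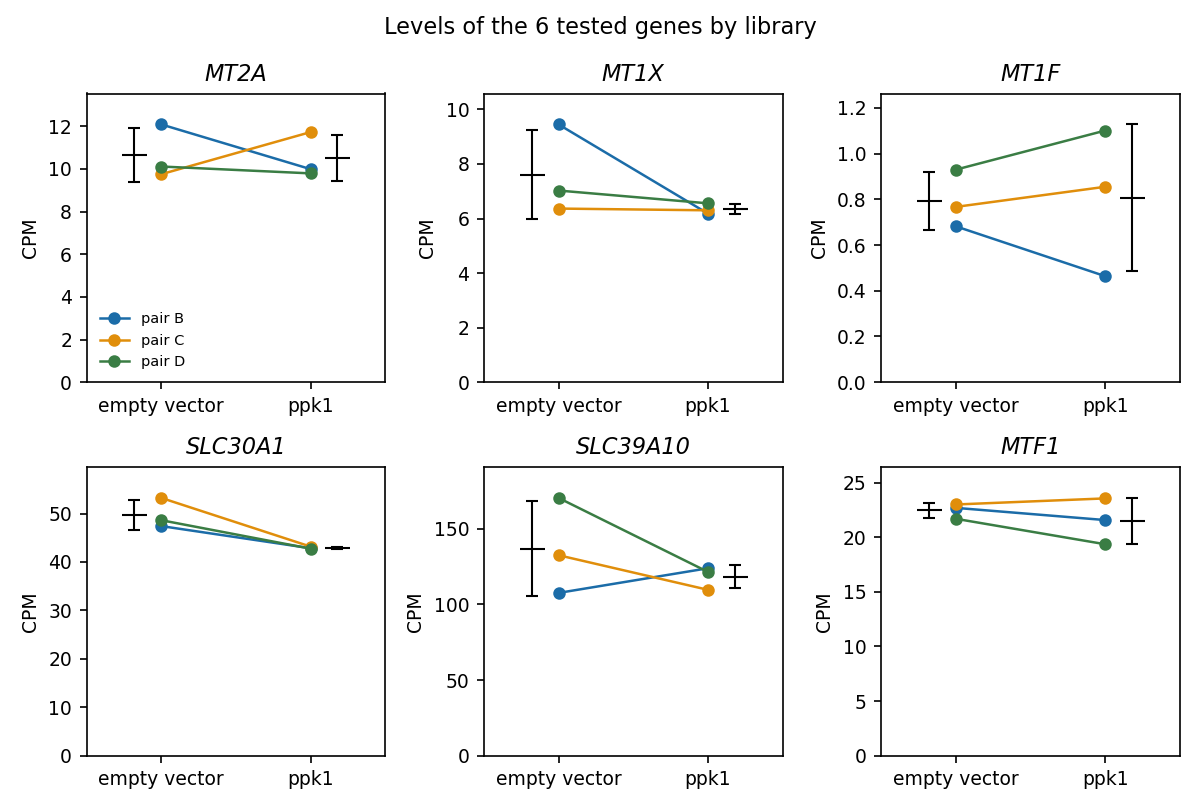
Level in CPM of the 6 tested genes in each library, with lines joining the matched libraries of a pair and horizontal marks with bars for the mean ± SD of 3 libraries. Only for SLC30A1 do the groups not overlap (47.4 to 53.2 against 42.7 to 43.2 CPM).

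**Figure D4:**
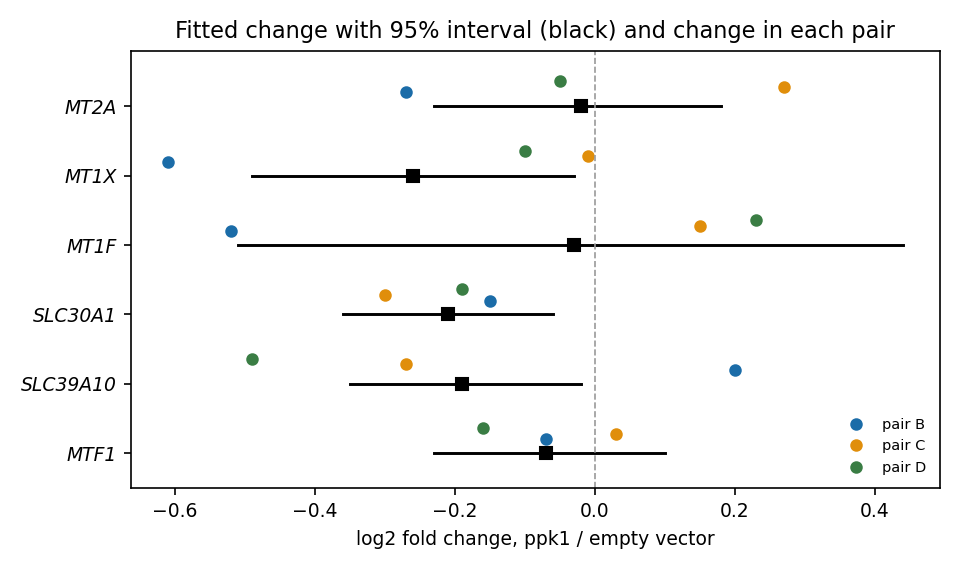
Fitted log2 fold change (square) with its 95% interval (line) for the 6 tested genes, and the log2 difference in each pair (coloured points). The fitted values run from -0.26 (MT1X) to -0.02 (MT2A), and pair B of SLC39A10 lies on the other side of 0 from pairs C and D.

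Across the 6 libraries, the genes whose level followed MT2A most closely, among 15094 others with a mean of at least 50 counts, were HOXD4, AP4M1 and HOXA6. Closeness was the root mean square difference of centred log2 CPM, which was 0.0471, 0.0483 and 0.0554. For MT1X they were CATSPERG (0.0467), LINC01431 (0.0571) and PLK3 (0.079), and for SLC30A1 they were NR5A2 (0.0258), COL25A1 (0.0275) and BMS1P4 (0.0304, as root mean square differences of log2 CPM). None of these neighbours was called in the edgeR test, with adjusted p-values between 0.105 and 0.971. They were picked for likeness to uncalled genes in the same libraries, so this was largely set by the choice. No other metallothionein or zinc transporter was among them. Only MT2A and MT1X of the metallothioneins reached a mean of 50 counts (MT1F had 37.67), so no other could appear. With so few neighbours named, the absence of zinc transporters shows little.

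No other zinc transporter gene was called, where 9.08% of all tested genes were. Most of the 9 other SLC30 genes export zinc from the cytosol or load it into organelles. Of the 9, 7 were tested and 0 were called (0 at an unadjusted p below 0.05 with edgeR, and 0 with DESeq2 by either measure). Their log2 fold changes were all below 0, from -0.16 to -0.01, with a median of -0.04. The 2 with the most counts were SLC30A9 (-0.01) and SLC30A5 (-0.04 as a log2 fold change). Of the 13 other SLC39 genes, which bring zinc into the cytosol, 11 were tested and 0 were called, with a median of 0.00 and a range from -0.14 to 0.24. Without replicate D, edgeR called 1 of the 11, higher with ppk1. SLC39A6 and SLC39A7, the most counted, had log2 fold changes of -0.11 and -0.05. In edgeR and in DESeq2, 1 importer had an unadjusted p below 0.05. In edgeR it was SLC39A4, the importer known from intestinal zinc uptake, named here after its value was seen. SLC39A4 was at 17.0, 19.1 and 20.8 CPM with the empty vector and at 21.1, 23.6 and 22.3 CPM with ppk1, which is 0.24 as a log2 fold change (SE 0.08, adjusted p 0.0553 in edgeR).

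Of 5 other genes reported as targets of zinc or MTF1, 2 fell, where 5.04% of all tested genes did. PGF, which encodes placental growth factor, was at 12.8, 12.5 and 11.0 CPM with the empty vector and at 9.27, 6.64 and 8.64 CPM with ppk1. The groups did not overlap, and the log2 fold change was -0.57 (SE 0.10, edgeR adjusted p 9.23e-05). ZNF658, a zinc finger gene reported to act in zinc-dependent repression, was lower too, at -0.40 as a log2 fold change (SE 0.11, adjusted p 0.0165 in edgeR). ZNF658 shares 56.4% of its 50-base stretches with other genes, chiefly ZNF658B, so its value is uncertain. Without replicate C neither was called (adjusted p 0.121 and 0.181), and ZNF658 was not called without the block (0.0679), without replicate D (0.067) or with DESeq2 (0.138). The other 3 of this list (SELENOH, GCLC and CSRP1) were not called with all pairs and no offsets. Their log2 fold changes ran from 0.03 to 0.15, and the list's median was 0.03. With the offsets for GC content and length, 3 of the 5 were called, which were PGF, ZNF658 and 1 other gene, higher with ppk1.

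Copper is the other metal that metallothioneins bind. Of 13 copper handling genes, all tested, 1 fell and 0 rose, with a median log2 fold change of 0.06. This is close to the 9.08% called among all tested genes. At an unadjusted p below 0.05, edgeR gave 4 of the 13, with 1 of them lower, where 23.8% of all tested genes passed. With the offsets for GC content and length, and also without replicate D, 2 were called. The gene called with all pairs and no offsets was ATP7A, the pump that moves copper out of the cell or into the secretory pathway. ATP7A was at 30.4, 33.8 and 32.5 CPM with the empty vector and at 26.6, 25.5 and 25.4 CPM with ppk1. Its groups did not overlap, and the log2 fold change was -0.32 (SE 0.08, edgeR adjusted p 0.00538, and 0.367 without replicate C). ATP7A overlaps other genes on both strands. Magnesium and manganese are divalent metals as well. Of 17 genes of their transport, all tested, edgeR and DESeq2 called 0, with 3 and 2 at an unadjusted p below 0.05. With the offsets for GC content and length edgeR called 2 of the 17, and without replicate D it called 1. With all pairs and no offsets the median of the 17 was -0.03. MAGT1 and ATP2C1, the most counted, had log2 fold changes of 0.00 and -0.08.

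Heavy metal ions such as cadmium are known to induce heat shock and glutathione genes along with metallothioneins. Of 11 such genes, 4 rose and 0 fell, with a median log2 fold change of 0.25, where 4.04% of all tested genes rose and 5.04% fell. They were HSPA1B (0.33), DNAJB1 (0.32) and HSPH1 (0.31), which encode chaperones or a cochaperone, and GCLM (0.23), which encodes a subunit of the enzyme that starts glutathione synthesis. Their edgeR adjusted p-values were 0.00155, 0.00365, 0.00345 and 0.0439. GCLM was not called in 8 of the 10 alternative fits, among them RLE scaling (adjusted p 0.0523), DESeq2 (0.112) and the fit without replicate B (0.0586). The chaperone genes were already known to be higher in these libraries when the list was drawn up, so the count is not independent evidence of its direction. HSPA1B shares 73.5% of its 50-base stretches with other genes and is uncertain. No gene of the list was called without replicate C (3 had an unadjusted p below 0.05 in edgeR), and without the block 1 was called, HSPA1B (adjusted p 0.0212). Metallothioneins, which belong to the same known response, had log2 fold changes of -0.02 (MT2A), -0.26 (MT1X) and -0.03 (MT1F) in these libraries.

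Glucocorticoids are the other classical inducers of MT2A and MT1X. Of 9 glucocorticoid response genes, all tested, edgeR called 0 (0 at an unadjusted p below 0.05) and DESeq2 called 0 (1 at an unadjusted p below 0.05). Among all tested genes edgeR called 9.08%, and 23.8% had an unadjusted p below 0.05, so 0 of so few genes shows little. With the offsets for GC content and length, edgeR called 1 of the 9. With upper-quartile scaling it called 0, and 2 had an unadjusted p below 0.05, both lower with ppk1. The median log2 fold change of the 9, with all pairs and no offsets, was 0.07. TSC22D3 and FKBP5, the most counted, had log2 fold changes of 0.14 and 0.08.

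**Figure D5:**
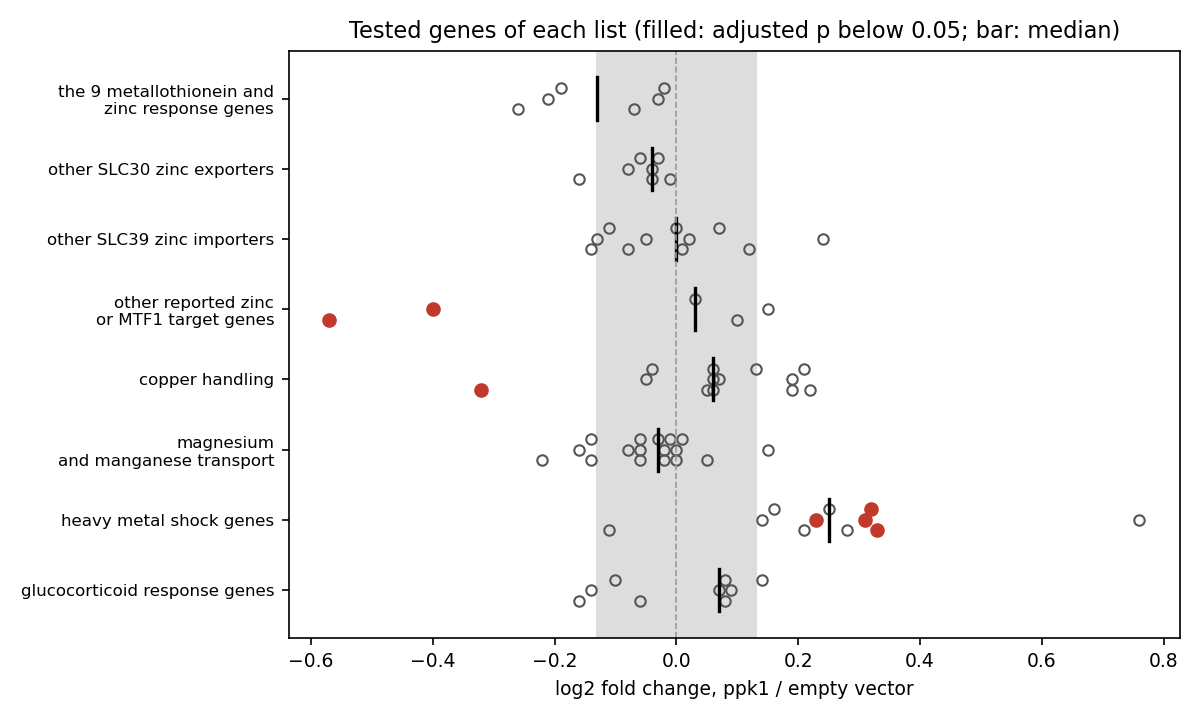
Log2 fold change of every tested gene in the 9-gene set and in 7 related lists, with filled points for an edgeR adjusted p below 0.05, black bars for list medians and a grey band for the interquartile range of all tested genes (-0.13 to 0.13). The heavy metal shock genes have a median of 0.25, and no point of the 9-gene set is filled.

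All 10 markers of the HEK293 line (PAX2, LHX1, NEFM, NEFL, INA, VIM, KRT8, KRT18, LIN28B and CDH2) had counts in every library. Of these, NEFL (a neurofilament gene) was called lower, at -0.29, and INA (an intermediate filament gene) and KRT18 (a keratin gene) higher, at 0.25 and 0.28 (log2 fold changes). The adjusted p in edgeR was 0.00793, 0.0295 and 0.0113, in that order. Among all tested genes 9.08% were called. The number of called line markers depended on the fit. It was 0 in the unpaired fit and 0 in the fit of pairs B and D alone. DESeq2 and upper-quartile scaling each gave 2, the offsets for GC content and length gave 4, and the other alternatives gave 3. The summed level of the 10 was 1063 to 1161 CPM with the empty vector and 1039 to 1065 CPM with ppk1. Of 14 markers of other cell types, 8 had a mean below 10 counts, KRT14 had 0 counts in all libraries, and the summed level was 21.4 to 25.8 CPM with the empty vector and 24.7 to 25.4 CPM with ppk1, most of it from COL1A1 (18.5 and 19.6 CPM on average). ALB was the 1 called gene of the 6 tested, at 0.632 (empty vector) and 0.237 CPM (ppk1) on average. It had a mean of 20.5 counts, and DESeq2 called 0 genes of this list. The part of these markers in the results above was not tested.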

How the data were processed

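RNA was sequenced from 6 cultures of HEK293T cells, 3 per group. The deposited table holds whole-number read counts per Ensembl gene, with 1 column per library. The authors' processing notes name bcl2fastq 2.20, Trimmomatic, STAR, HTSeq, edgeR, DESeq, Cufflinks and Cuffdiff, with no role or order. The genome build, the annotation, the strand setting and the treatment of multiply mapped reads are not given in the sources used here, so counts of genes that share sequence or overlap are uncertain. Columns were matched to samples by name, with 0 left over.

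Genes were filtered with filterByExpr (minimum count 10) and scaled by TMM, and tested in R 4.3.3 with edgeR 4.0.16 (glmQLFit, glmQLFTest), the replicate letter as a block and Benjamini-Hochberg adjustment at 0.05. Intervals are 95% intervals of the fitted log2 fold change. CPM are counts divided by the TMM-scaled total and multiplied by 1e6. The CPM of 3 counts use the plain total. Pair differences use log2 CPM with a prior count of 2. Lengths and shared sequence come from GENCODE release 29 by gene identifier, and promoters from RefSeq. The pairing is stated by the series' design text. Deviations from group means of same-letter libraries correlated across genes at 0.109 (B), 0.135 (C) and 0.0476 (D), against -0.12 to -0.00506 between letters. Deviations sum to 0 within a group, so the values between letters are not independent of those within letters.

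The members and lists were chosen with earlier results of these data known. Named were all 9 members, the called genes of each list (at most 6, otherwise the 2 most counted) and the nearest genes of MT2A, MT1X and SLC30A1. Of 121 listed genes, 1 (MT1IP) was not found by name. Alternatives were no block, RLE or upper-quartile scaling, DESeq2 1.42.0, other count filters, offsets for GC content and length, and each pair left out.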

Additional observations from a re-analysis of the deposited data

How the results depend on the processing

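Each of the 6 tested members was refitted under up to 10 alternatives. SLC30A1, MT1X, SLC39A10 and MTF1 kept a negative log2 fold change under all 10, which reuse the same libraries. Without the replicate block 0 members were called, and the log2 fold changes of SLC30A1, MT1X, SLC39A10 and MT2A were -0.21, -0.27, -0.21 and -0.02 in that unpaired fit (adjusted p 0.141, 0.31, 0.41 and 0.931). Offsets for GC content and length called 1 member (MT1X, -0.31). Across the fits without 1 pair, the log2 fold change ran from -0.21 to 0.20 for MT1F, from -0.37 to -0.06 for MT1X, from -0.17 to 0.11 for MT2A, from -0.25 to -0.17 for SLC30A1 and from -0.38 to -0.05 for SLC39A10, and 0 to 2 members were called. The cause was not tested.

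The 1777 genes called (791 higher, 986 lower) became 470 (89 and 381) without the block, 755 (324 and 431) with DESeq2 and 2714 (1360 higher) with the offsets, and 422 were higher and 933 lower with upper-quartile scaling. Without 1 pair the calls ran from 406 to 2435, with 82 to 1263 higher and 324 to 1172 lower. Of the 73 tested genes of the related lists, 7 were called, where 9.08% of all tested genes were. The number was 3 without the block and 13 with the offsets, where 2714 of 19463 genes were called. It was 0 (without C) to 10 (without D) when 1 pair was left out. No scaling moved the median of all genes by as much as 0.1. Each scaling sets the bulk of genes near 0 by design, so this median does not measure dependence on scaling. Depth limits MT1F, with at most 46 counts in a library, and the genes at 0.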
